A study of Homo sapiens with 8 samples.

Results

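The 10 genes described here carry the Notch pathway in HT29 cells from its receptors to its nuclear output: the receptors NOTCH1, NOTCH2 and NOTCH3, the ligands JAG1 and JAG2, the transcriptional targets HES1, HES4, HEY1 and NRARP, and HES6, a HES family factor. They were taken by symbol from the 38148 genes of the deposited mRNA-seq table, and all 10 have a row in it. HT29 is a colorectal cancer line with an activating BRAF mutation, and selumetinib inhibits MEK, the kinase upstream of ERK1/2. The 4 groups crossed treatment, none or selumetinib at 1 μM for 24 h, with the sort into CCNB1-negative and CCNB1-positive cells, and each held 2 libraries. Cells of every group were glyoxal-fixed, permeabilised with methanol, stained for cyclin B1, the G2 cyclin encoded by CCNB1, and flow-sorted before poly(A) selection. A single cell line was used, so differences between lines were not sampled. Nothing in the labels says that the libraries of a group came from separate cultures, and p-values then measure the spread between these libraries, which may be technical. Values are log2 reads per gene, scaled by the authors to the read total of the largest library. In bulk libraries such as these, fewer cells expressing a gene and less RNA per cell cannot be told apart.

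Titles and descriptions of the samples disagree. In all 8 cases the title gives the other treatment and the other fraction than the short description gives, and the stated treatment in the medium follows the title. The labels and the methods of the study also name different growth media. Groups here follow the descriptions, which are also the column names of the table. Under the titles, each selumetinib response below would move to the other fraction with its sign changed, each fraction difference would move to the other treatment with its sign changed, and the interaction would stay. CCNB1 mRNA had 88 to 154 reads in the libraries described as treated CCNB1-negative and 3764 to 6167 in those described as treated CCNB1-positive, against 2988 to 3271 and 14140 to 15521 in untreated cells. Under the titles, the 88 to 154 reads would belong to untreated CCNB1-positive cells and the 14140 to 15521 to treated CCNB1-negative cells. CCNB1 mRNA thus ran the way the descriptions say. Of 10 genes of ERK output, which include DUSP6, SPRY4 and ETV4, 8 were lower in the libraries described as treated in both fractions, while EGR1 was higher in both and SPRED2 was higher in CCNB1-negative cells.

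Reads on genes numbered between 12696860 and 23916160 per library, and were fewest in the treated CCNB1-negative pair. Counts of replicates disagreed beyond sampling noise in every group, with a chi-square of 15.56 to 30.18 per gene. All 8 colorectal epithelial markers, EPCAM, CDH1, KRT8, KRT18, KRT20, CDX2, VIL1 and LGALS4, were detected in each library. Their summed reads were 209073 to 264908 in untreated CCNB1-negative, 241506 to 257514 in untreated CCNB1-positive, 68793 to 106173 in treated CCNB1-negative and 98089 to 182988 in treated CCNB1-positive libraries, sums that are not scaled for depth and consist mostly of KRT8 and KRT18. The markers did not move together under selumetinib. In CCNB1-negative cells EPCAM, KRT8 and KRT18 fell by 1.34, 1.22 and 1.11 on the log2 scale, and EPCAM alone of these passed in CCNB1-positive cells. CDX2 and VIL1 rose by 1.06 and 0.73 in CCNB1-negative and by 1.14 and 0.58 in CCNB1-positive cells. Of 7 markers of blood, endothelial and stromal cells, PTPRC, CD3E, COL1A2, PECAM1 and ACTA2 stayed on average under 1 RPM, a unit of reads relative to the library's total on genes. CD68 and COL1A1 averaged more than 1 RPM. CD68 was detected in every library, with 64 to 231 reads, and its selumetinib response did not pass in either fraction. The 7 together had 141 to 202, 174 to 183, 103 to 145 and 176 to 368 reads in these groups, and CD3E and COL1A2 had 0 or 1 read in each library. COL1A1 rose with selumetinib, by 1.81 on the log2 scale in the CCNB1-negative and 2.19 in the CCNB1-positive fraction, from 6 to 24 reads up to 20 to 107 per library. Its untreated means, 0.588 and 0.96 RPM, were under the mean of 1 RPM required for testing, so it passed that filter through the treated groups. The part of such marker shifts in the results below was not tested.

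Notch receptors are cut by ADAM proteases and then by gamma-secretase when a DLL or JAG ligand on a neighbouring cell binds them. The released intracellular domain enters the nucleus, joins the DNA-binding protein RBPJ and a Mastermind coactivator, and switches on HES and HEY repressors. In the intestinal epithelium the pathway keeps cells in the absorptive and progenitor state, where HES1 represses ATOH1, the factor that starts secretory differentiation. NRARP is a target that feeds back on the receptor's nuclear complex, and HES6 differs from the other members in that it opposes HES1 in several cell types and is commonly high in neural and neuroendocrine cells.

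RBPJ recognises GTGGGAA, and HES factors bind N boxes, written CACNAG. Both were searched on both strands of RefSeq promoters (GRCh38.p14, 250 bases before to 50 after the start site), which matched 9 of the 10 genes, and HEY1 was not matched. The promoters of the 3 HES genes that rose together under selumetinib are shown because they differ in these motifs. Capitals mark GTGGGAA and, in HES1, a further match to its 6-base core TGGGAA, which every GTGGGAA also holds. HES1 lies on the plus strand, chr3:194135898-194136197. HES4 and HES6 lie on the minus strand, chr1:1000048-1000347 and chr2:238239989-238240288, and each promoter is printed 5′ to 3′ along its gene.
HES1: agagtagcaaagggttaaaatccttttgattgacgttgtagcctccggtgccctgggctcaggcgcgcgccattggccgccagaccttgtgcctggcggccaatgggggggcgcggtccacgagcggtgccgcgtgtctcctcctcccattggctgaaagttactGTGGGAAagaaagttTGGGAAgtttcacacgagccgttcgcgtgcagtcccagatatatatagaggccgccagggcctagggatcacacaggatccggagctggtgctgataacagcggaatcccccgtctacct
HES4: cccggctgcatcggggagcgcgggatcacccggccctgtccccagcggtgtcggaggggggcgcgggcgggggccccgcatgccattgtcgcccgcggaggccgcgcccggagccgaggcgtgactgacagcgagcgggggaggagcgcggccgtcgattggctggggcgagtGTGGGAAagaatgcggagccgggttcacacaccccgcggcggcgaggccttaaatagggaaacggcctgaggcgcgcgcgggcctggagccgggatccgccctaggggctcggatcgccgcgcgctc
HES6: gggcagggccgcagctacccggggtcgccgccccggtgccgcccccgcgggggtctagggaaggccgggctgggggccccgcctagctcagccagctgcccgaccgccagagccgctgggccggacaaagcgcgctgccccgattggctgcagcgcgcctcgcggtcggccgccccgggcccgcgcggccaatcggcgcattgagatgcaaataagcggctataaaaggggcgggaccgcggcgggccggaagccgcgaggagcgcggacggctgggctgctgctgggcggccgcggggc

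GTGGGAA lay in the HES1 promoter 85 to 79 bases before the start site and in the HES4 promoter 77 to 71 bases before it. Among the 9 promoters it was present in these 2 only, against 6.25% of all 35116 promoters of this length. HES1 had its further TGGGAA 70 to 65 bases before the start site, and 3.8% of all promoters held this core 2 or more times. No match to either motif was found in the HES6 window, which is 78% G and C. N boxes were present in 5 of the 9 promoters, those of HES1, NOTCH1, NOTCH2, NOTCH3 and NRARP, against 38.03% of all promoters. The 4 N boxes of HES1 set its promoter among the 0.293% with 4 or more. These matches are descriptions of the sequence and say nothing of which factor was bound.

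**Figure D1:**
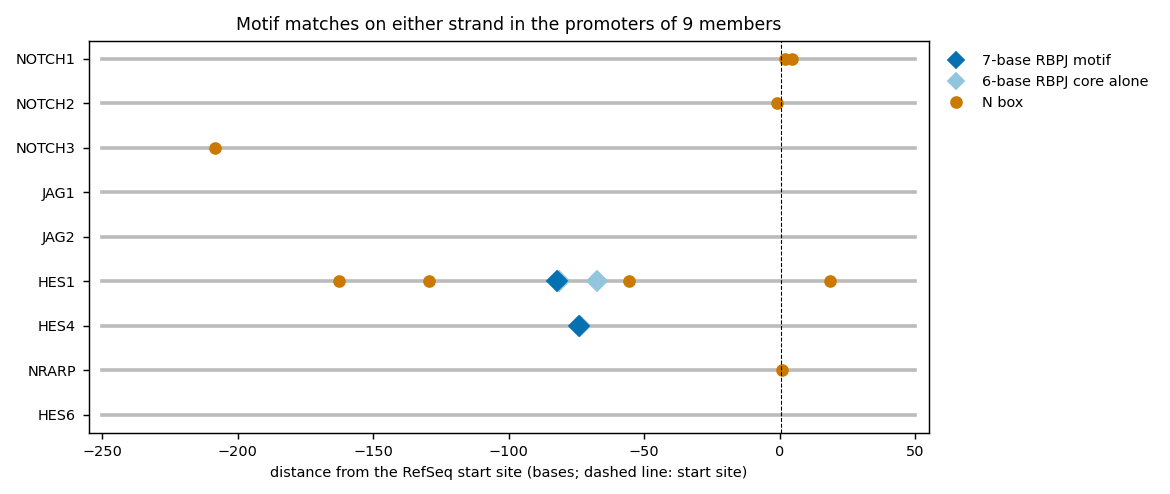
Motif matches on either strand in the promoters of the 9 members with a RefSeq sequence, by distance from the start site in bases (grey line, 250 before to 50 after). Dark diamonds mark the 7-base RBPJ motif, pale diamonds its 6-base core alone and circles N boxes. The 7-base motif appears only in HES1 and HES4, within 85 bases before the start site.

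Across the 10 genes, selumetinib was accompanied by higher NOTCH1, HES1, HES4 and HES6 mRNA and by lower JAG1 and NRARP mRNA in both fractions. NOTCH2 and JAG2 did not pass the test in either fraction. NOTCH3 and HEY1 stayed under a mean of 1 RPM, the level required for testing, which left 8 of the 10 genes among the 14219 tested. In CCNB1-negative cells 4 of the 8 rose and 2 fell, against 38.2% of all tested genes higher and 35.8% lower (limma, adjusted p under 0.05). In CCNB1-positive cells the counts were again 4 and 2, against 38% higher and 27.3% lower. The genes were the same in both fractions, where 33.3% of all tested genes rose and 26% fell in both. The median difference of the 8 genes was 0.49 in CCNB1-negative cells against 0.21 in CCNB1-positive cells, beside 0.05 and 0.17 for all tested genes, and counts this close to the background are no result about the genes as a group.

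**Figure D2:**
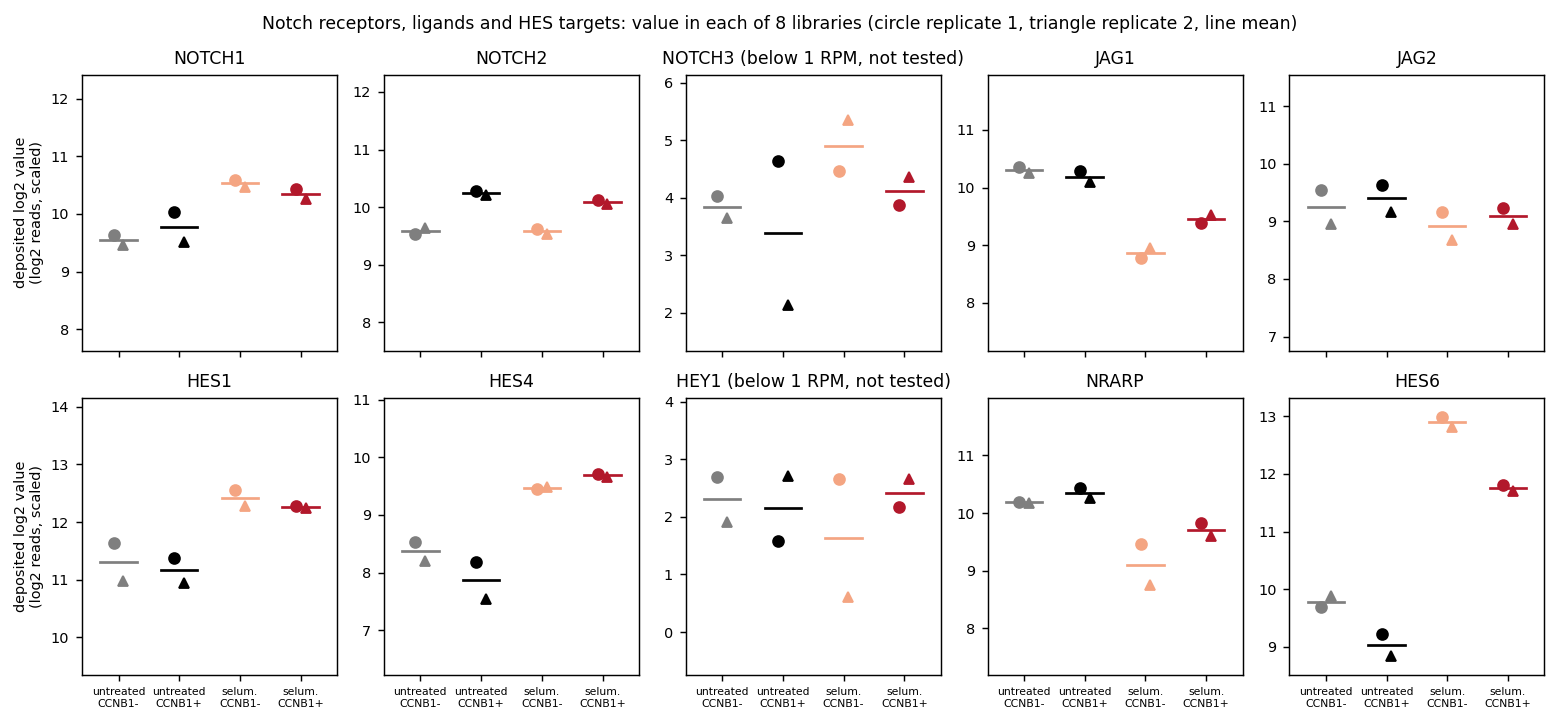
Deposited log2 value (log2 reads, scaled) of each of the 10 genes in each of the 8 libraries, by group on the horizontal axis. Circles are replicate 1, triangles replicate 2 and lines group means, and every panel spans the same number of log2 units. The treated libraries of NOTCH1, HES1, HES4 and HES6 sit above all untreated ones, and those of JAG1 and NRARP below all untreated ones.

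Of the receptors, NOTCH1 passed the test of the selumetinib response in both fractions. NOTCH1 (ENSG00000148400, chromosome 9 of GRCh38, 136494433 to 136546048, minus strand) stood at log2 values of 9.64 and 9.45 in untreated CCNB1-negative, 10.03 and 9.51 in untreated CCNB1-positive, 10.59 and 10.47 in treated CCNB1-negative and 10.43 and 10.26 in treated CCNB1-positive libraries. All 4 treated libraries were above all 4 untreated ones, and the order of the group means put treated CCNB1-negative cells highest. Selumetinib raised NOTCH1 1.98-fold in CCNB1-negative cells (log2 difference 0.98 ± 0.18 SE, limma adjusted p = 0.000184) and 1.48-fold in CCNB1-positive cells (0.57 ± 0.18 SE, limma adjusted p = 0.0119). The second of these rested on single libraries. It was 0.31 (limma adjusted p = 0.216) without untreated CCNB1-positive replicate 2, which lay lower than replicate 1 by more than any other NOTCH1 pair, and 0.48 (limma adjusted p = 0.0839) without treated CCNB1-positive replicate 1.

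NOTCH2 (ENSG00000134250, chromosome 1, 119911553 to 120100779, minus strand) had log2 values of 9.53 and 9.64, then 10.28 and 10.22, in untreated CCNB1-negative and CCNB1-positive libraries. In the treated libraries of these fractions it had 9.63 and 9.53, then 10.13 and 10.06. The values followed the fraction and overlapped between treatments only in CCNB1-negative cells. The response to selumetinib was -0.0042 in CCNB1-negative cells (95% interval -0.31 to 0.30) and -0.15 in CCNB1-positive cells (-0.46 to 0.15), and these intervals leave room for changes of up to 0.46 in size. NOTCH2NLA, a near-identical partial copy of the gene, had 7 to 28 reads per library, next to 437 to 1243 for NOTCH2, and how reads shared by the pair were assigned is not given in the sources used here.

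NOTCH3 (ENSG00000074181, chromosome 19, 15159038 to 15200995, minus strand) was close to the detection limit, with 15 and 10 reads in untreated CCNB1-negative, 25 and 4 in untreated CCNB1-positive, 14 and 24 in treated CCNB1-negative and 13 and 13 in treated CCNB1-positive libraries. The groups overlapped. With no filter on low values its response was 1.06 (95% interval -0.77 to 2.90) in CCNB1-negative cells against 0.73 (-1.11 to 2.56) in CCNB1-positive cells, so a response was not detectable at this depth.

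The ligands both had lower means under selumetinib, and JAG1 passed the test. JAG1 (ENSG00000101384, chromosome 20, 10637684 to 10673999, minus strand) had log2 values of 10.35 and 10.25 in untreated CCNB1-negative and 10.29 and 10.09 in untreated CCNB1-positive libraries. Under selumetinib it had 8.77 and 8.95 in CCNB1-negative and 9.39 and 9.53 in CCNB1-positive libraries. The untreated fractions overlapped, every treated library lay below them, and the treated CCNB1-negative pair was the lowest. JAG1 fell 2.72-fold in CCNB1-negative cells (-1.44 ± 0.15 SE, limma adjusted p = 1.43e-06) and 1.66-fold in CCNB1-positive cells (-0.73 ± 0.15 SE, limma adjusted p = 0.000873). The smaller fall was -0.48 when libraries were scaled to nuclear-encoded reads without MALAT1, and it stayed past the threshold there. An antisense lncRNA over 1305 bases of JAG1 had at most 151 reads in a library, against 279 to 1252 for JAG1, and the strand setting of the count is not given in the sources used here.

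JAG2 (ENSG00000184916, chromosome 14, 105140982 to 105168824, minus strand) had log2 values of 9.54 and 8.95 in untreated CCNB1-negative and 9.62 and 9.17 in untreated CCNB1-positive libraries, against 9.16 and 8.67, then 9.23 and 8.95, in the treated libraries of these fractions. The SD of a group reached 0.42, larger than the differences between treated and untreated cells, and treated and untreated libraries overlapped. Replicate 1 stood above replicate 2 in every group. The differences were -0.33 (95% interval -0.83 to 0.17) in CCNB1-negative cells against -0.30 (-0.80 to 0.20) in CCNB1-positive cells, neither past the threshold. The first moved with single libraries: it was -0.0368 (limma adjusted p = 0.907) without untreated CCNB1-negative replicate 1 and -0.63 (limma adjusted p = 0.0436) without replicate 2, and -0.58 (limma adjusted p = 0.0718) and -0.0878 (limma adjusted p = 0.783) without treated CCNB1-negative replicates 1 and 2. Scaling to nuclear-encoded reads without MALAT1 brought it to -0.0165. A lncRNA on the same strand overlaps 16631 bases of the gene and had up to 767 reads, so reads of the pair cannot be told apart where they share exons.

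Among the targets, HES1 and HES4 rose and NRARP fell. HES1 (ENSG00000114315, chromosome 3, 194136148 to 194138732, plus strand), the repressor of secretory fate, had log2 values of 11.63 and 10.98 in untreated CCNB1-negative, 11.38 and 10.94 in untreated CCNB1-positive, 12.56 and 12.28 in treated CCNB1-negative and 12.28 and 12.25 in treated CCNB1-positive libraries. Treated libraries were all above untreated ones, and the fractions overlapped within untreated cells. The rise was 2.16-fold in CCNB1-negative (1.11 ± 0.21 SE, limma adjusted p = 0.000247) and 2.15-fold in CCNB1-positive cells (1.10 ± 0.21 SE, limma adjusted p = 0.000402). Both rises passed the test in every one of the 19 other settings, which included leaving out each library, and the values stayed between 0.79 and 1.44.

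HES4 (ENSG00000188290, chromosome 1, 998962 to 1000172, minus strand), whose promoter also holds GTGGGAA, had log2 values of 8.54 and 8.20 in untreated CCNB1-negative and 8.18 and 7.54 in untreated CCNB1-positive libraries. After selumetinib it had 9.46 and 9.49 in CCNB1-negative and 9.72 and 9.67 in CCNB1-positive libraries. The untreated CCNB1-positive pair was the lowest and the treated CCNB1-positive pair the highest, with no overlap between treatments. HES4 rose 2.15-fold in CCNB1-negative (1.10 ± 0.21 SE, limma adjusted p = 0.000277) and 3.56-fold in CCNB1-positive cells (1.83 ± 0.21 SE, limma adjusted p = 6.58e-06). Both rises passed the test in each of the 19 other settings.

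NRARP (ENSG00000198435, chromosome 9, 137299631 to 137302271, minus strand), the feedback target, went the other way. It had log2 values of 10.19 and 10.18 in untreated CCNB1-negative and 10.44 and 10.27 in untreated CCNB1-positive libraries, and of 9.46 and 8.76, then 9.83 and 9.60, in the treated libraries of these fractions. Each treated library was below each untreated one, and the treated CCNB1-negative replicates were the widest apart (SD 0.50, n = 2). The fall was 2.11-fold in CCNB1-negative cells (-1.08 ± 0.20 SE, limma adjusted p = 0.000239) and 1.56-fold in CCNB1-positive cells (-0.64 ± 0.20 SE, limma adjusted p = 0.0124). In CCNB1-positive cells the call was lost without untreated replicate 1 (-0.55, limma adjusted p = 0.0703), without treated replicate 2 (-0.53, limma adjusted p = 0.0903) and with scaling to nuclear-encoded reads without MALAT1 (-0.39, limma adjusted p = 0.111).

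HEY1 (ENSG00000164683, chromosome 8, 79764010 to 79767857, minus strand), a repressor of the same family as the HES factors, had 6 and 3 reads in untreated CCNB1-negative, 3 and 6 in untreated CCNB1-positive, 4 and 0 in treated CCNB1-negative and 4 and 4 in treated CCNB1-positive libraries. A value this low does not order the groups. With no filter its responses were -0.68 (95% interval -2.56 to 1.21) and 0.26 (-1.62 to 2.15) in CCNB1-negative and CCNB1-positive cells.

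HES6 (ENSG00000144485, chromosome 2, 238238267 to 238240662, minus strand) had the largest responses of the 8 tested genes. It had log2 values of 9.69 and 9.87 in untreated CCNB1-negative, 9.22 and 8.84 in untreated CCNB1-positive, 12.99 and 12.82 in treated CCNB1-negative and 11.81 and 11.71 in treated CCNB1-positive libraries. The 4 groups did not overlap at all, and treated CCNB1-negative cells were highest, followed by treated CCNB1-positive, untreated CCNB1-negative and untreated CCNB1-positive cells. HES6 rose 8.73-fold in CCNB1-negative (3.13 ± 0.16 SE, limma adjusted p = 3.04e-09) and 6.61-fold in CCNB1-positive cells (2.73 ± 0.16 SE, limma adjusted p = 5.34e-08), and both rises passed the test in all 19 other settings. A lncRNA on the opposite strand covers 2396 bases of the locus but had at most 52 reads in a library, next to 419 to 5200 for HES6.

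Per kilobase of exon, HES1 and HES6 had the highest levels of the 10 genes in treated cells. In RPKM, the RPM value per kilobase of merged exon, HES1 had group means of 52.8 in untreated CCNB1-negative, 47.1 in untreated CCNB1-positive, 112 in treated CCNB1-negative and 99.9 in treated CCNB1-positive cells. HES6 had 18.9, 11.3, 165 and 74.2 RPKM in the same order, below HES1 in 3 groups and above it in treated CCNB1-negative cells. NRARP had 18.4, 20.7, 8.99 and 13.3 RPKM and HES4 had 12.5, 8.92, 26.6 and 31.0 RPKM, so these targets exchanged places under selumetinib. The receptors and ligands were lower, between 1.91 and 5.68 RPKM for NOTCH1, NOTCH2, JAG1 and JAG2. JAG1 went from above JAG2 in untreated cells, 5.68 and 5.27 RPKM beside 4.06 and 4.46, to below it in treated cells, 2.09 and 3.17 RPKM beside 3.21 and 3.59. NOTCH3 and HEY1 did not exceed 0.139 RPKM in any group. These orders between genes are descriptions and were not tested.

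**Figure D3:**
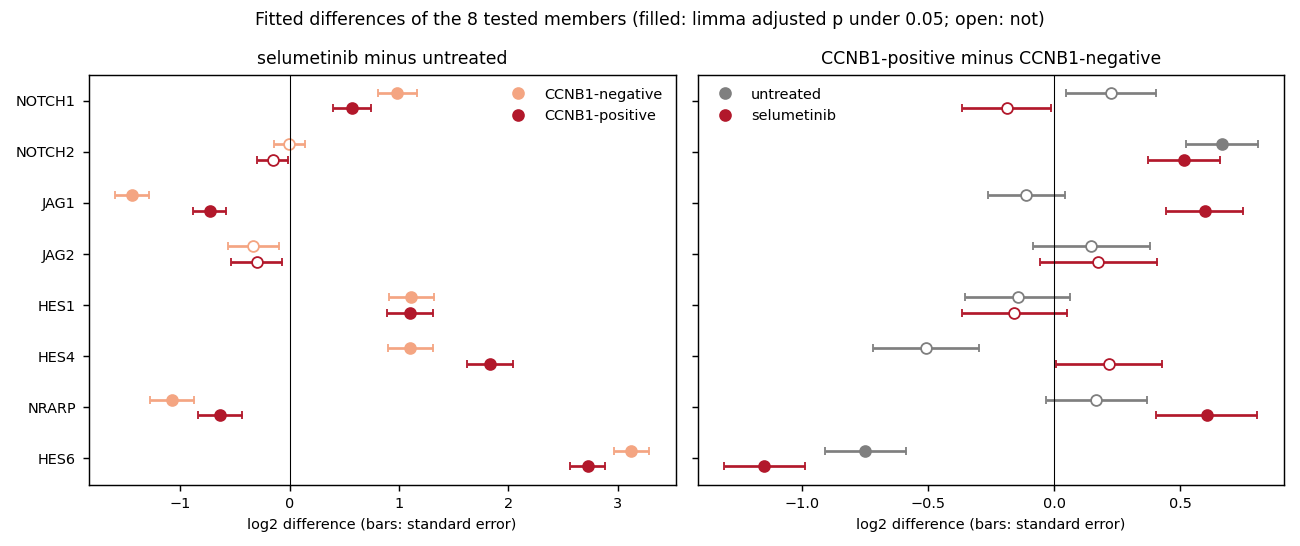
Fitted log2 differences of the 8 tested genes, selumetinib minus untreated (left) and CCNB1-positive minus CCNB1-negative (right), with bars of 1 standard error on a horizontal log2 axis. Filled points have a limma adjusted p under 0.05. HES6 shows the largest responses, 3.13 and 2.73, and stands lowest among the fraction differences, at -0.75 and -1.15.

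The comparison of fractions asks which genes differ between cells with cyclin B1, in or near G2, and the rest. In untreated cells NOTCH2 was 1.59-fold higher in CCNB1-positive than in CCNB1-negative cells (0.66 ± 0.14 SE, limma adjusted p = 0.0196) and HES6 was 1.68-fold lower (-0.75 ± 0.16 SE, limma adjusted p = 0.0188). These were 1 of 8 tested genes higher and 1 of 8 lower, against 1.36% and 1.51% of all tested genes. The NOTCH2 difference stayed between 0.61 and 0.72 but lost its call without any of the 4 untreated libraries: the limma adjusted p was 0.162 and 0.0785 without CCNB1-negative replicates 1 and 2, and 0.113 and 0.127 without CCNB1-positive replicates 1 and 2. The HES6 difference lost its call without untreated CCNB1-negative replicate 2 (-0.66, limma adjusted p = 0.171) or CCNB1-positive replicate 2 (-0.56, limma adjusted p = 0.31), and also with no filter, with quantile normalization and when the model held the untreated groups alone. HES4 stood at -0.51 (95% interval -0.96 to -0.06, limma adjusted p = 0.284) and passed (limma adjusted p = 0.0135) with the pair of fractions that share a treatment and a replicate number as a random block, a model that raised the calls over all tested genes from 408 to 2048. The other 5 tested genes were between -0.14 and 0.23 without the block.

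In selumetinib-treated cells NOTCH2, JAG1 and NRARP were higher in the CCNB1-positive fraction and HES6 was lower, 3 of 8 and 1 of 8 tested genes against 13.8% and 7.87% of all tested genes. HES6 was 2.22-fold lower (-1.15 ± 0.16 SE, limma adjusted p = 0.000183), and this call held in all 19 other settings. NOTCH2 was 1.43-fold higher (0.52 ± 0.14 SE, limma adjusted p = 0.0211), JAG1 1.51-fold higher (0.60 ± 0.15 SE, limma adjusted p = 0.0143) and NRARP 1.52-fold higher (0.61 ± 0.20 SE, limma adjusted p = 0.0452). These 3 calls did not survive the loss of single libraries, and that of NRARP was also lost with no filter (limma adjusted p = 0.101), with quantile normalization (0.55, 0.0531), with nuclear scaling (0.53, 0.0822) and when the model held the treated groups alone (0.0655). For NOTCH2 the limma adjusted p was 0.0978 without CCNB1-negative replicate 2, 0.142 without CCNB1-positive replicate 1 and 0.0784 without CCNB1-positive replicate 2. For JAG1 it was 0.0547 and 0.101 without CCNB1-positive replicates 1 and 2. The NRARP difference ran from 0.26 (limma adjusted p = 0.396) without CCNB1-negative replicate 2 to 0.96 without CCNB1-negative replicate 1 and it was also lost without CCNB1-positive replicate 1 (0.49, limma adjusted p = 0.245) or replicate 2 (0.72, limma adjusted p = 0.0782). NOTCH1 at -0.19, HES1 at -0.16, JAG2 at 0.18 and HES4 at 0.22 did not pass.

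The interaction asks whether CCNB1-negative and CCNB1-positive cells responded to selumetinib unequally. None of the 8 tested genes passed in limma, against 4.99% of all tested genes with a more positive and 0.345% with a more negative response in CCNB1-positive cells. There were 2 genes under an unadjusted p of 0.05, JAG1 and HES4, and limma-voom on the recovered reads also called 0. The JAG1 response was less negative in CCNB1-positive cells by 0.71 ± 0.22 SE (limma adjusted p = 0.0798) and the HES4 response was more positive there by 0.73 ± 0.30 SE (limma adjusted p = 0.189). NRARP stood at 0.44 ± 0.28 SE (limma adjusted p = 0.404), and without treated CCNB1-negative replicate 1 it passed, at 0.79 (limma adjusted p = 0.039). NOTCH1 and HES6 stood at -0.41 and -0.40, with 95% intervals of -0.95 to 0.12 and -0.89 to 0.08. The interval of HES1, -0.64 to 0.62, was centred near 0 but does not show equal responses. With the pair of fractions as a random block, as above, JAG1 (limma adjusted p = 0.00171) and HES4 (limma adjusted p = 0.00795) passed, in a model that raised the interactions called over all tested genes from 758 to 3813. The labels do not say that such fractions came from the same culture.

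The rest of the pathway was read from a list of 60 genes arranged by role, of which 42 were tested. In CCNB1-negative cells 26 of the 42 rose and 8 fell, against 38.2% of all tested genes higher and 35.8% lower. In CCNB1-positive cells 25 rose and 6 fell, against 38% higher and 27.3% lower. Of the 42, 24 rose and 4 fell in both fractions, against 33.3% and 26% of all tested genes that rose or fell in both. The median of the 42 differences was 0.69 and 0.48 in CCNB1-negative and CCNB1-positive cells, beside 0.05 and 0.17 for all tested genes. Genes past 2-fold are named by role below. The counts within each role stand beside these same shares of all tested genes, and counts of so few genes are no result about a role.

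The delta-like ligands moved opposite to JAG1. DLL1, a Notch ligand of secretory lineage cells in the intestine, had 26 and 40 reads in untreated CCNB1-negative and 15 and 13 in untreated CCNB1-positive libraries, against 307 and 293, then 211 and 164, after selumetinib. Its mean in untreated CCNB1-positive cells, 0.611 RPM, was under the filter that the treated groups met. Every treated library held more DLL1 reads than any untreated one, although 3 of the 4 treated libraries were shallower than every untreated one. DLL1 rose by 3.70 ± 0.30 SE and 4.08 ± 0.30 SE on the log2 scale in CCNB1-negative and CCNB1-positive cells (limma adjusted p = 1.31e-07 and 2.59e-07). DLL4, the other delta-like ligand tested, rose by 2.88 ± 0.25 SE and 2.91 ± 0.25 SE (limma adjusted p = 2.65e-07 and 8.38e-07), from 72 to 156 reads per untreated library to 482 to 696 per treated library. DLL3, DLK1, DLK2 and DNER did not reach 1 RPM, and the receptor NOTCH4 had at most 16 reads in a library.

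Ligand ubiquitination, which arms ligands by endocytosis, rose at all 3 tested genes in both fractions, MIB1, MIB2 and NEURL1. The fourth gene of this role, NEURL1B, had a mean log2 value of 3.44, under the 4.58 that stands for 1 RPM, and was not tested. Its mean in treated CCNB1-positive cells was 5.86 RPM. It had 5 and 2 reads in untreated and 1 and 1 in treated CCNB1-negative libraries, against 25 and 10 in untreated and 137 and 80 in treated CCNB1-positive ones. NEURL1 rose by 3.67 ± 0.23 SE in CCNB1-negative cells against 3.34 ± 0.23 SE in CCNB1-positive cells (limma adjusted p = 1.58e-08 and 1.81e-07) and MIB2 by 1.45 ± 0.17 SE and 0.97 ± 0.17 SE (limma adjusted p = 3.51e-06 and 0.000221). The ADAM protease ADAM17 rose by 0.91 and 0.68 in CCNB1-negative and CCNB1-positive cells (limma adjusted p = 0.000192 and 0.00269). ADAM10 stood at 0.33 and 0.34, close to the threshold (limma adjusted p = 0.0427 and 0.0466). Whether calls of pathway genes at responses under 2-fold hold in other settings was not examined. Of the 5 tested genes for receptor glycosylation and furin cleavage, 1 rose and 3 fell in CCNB1-negative cells and 1 rose and 2 fell in CCNB1-positive cells, none past 2-fold.

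Gamma-secretase subunits were divided, with 2 of 6 higher and 2 of 6 lower in each fraction. APH1A fell by 1.12 ± 0.19 SE in CCNB1-negative cells against 0.61 ± 0.19 SE in CCNB1-positive cells (limma adjusted p = 0.000121 and 0.0132), while its paralog APH1B rose by 2.97 ± 0.49 SE and 1.99 ± 0.49 SE (limma adjusted p = 9.14e-05 and 0.00299). APH1B had only 6 to 38 reads in untreated libraries, a mean of 0.747 RPM in CCNB1-negative cells that lies under the filter, and its rise in CCNB1-positive cells was 0.86 (limma adjusted p = 0.152) with quantile normalization.

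The nuclear complex was called at all 7 tested genes in CCNB1-negative cells, 5 higher and 2 lower, and at 6 in CCNB1-positive cells, 5 higher and 1 lower. Calls were common in general, at 10530 and 9288 of all 14219 tested genes in these fractions. The Mastermind coactivators MAML3 and MAML2 rose by 3.10 ± 0.24 SE and 2.96 ± 0.17 SE in CCNB1-negative cells (limma adjusted p = 7.37e-08 and 7.23e-09) and by 2.09 ± 0.24 SE and 2.37 ± 0.17 SE in CCNB1-positive cells (limma adjusted p = 5.94e-06 and 2.1e-07). CREBBP, a histone acetyltransferase recruited by the complex, rose by 1.59 ± 0.16 SE and 1.11 ± 0.16 SE (limma adjusted p = 1.01e-06 and 5.32e-05). RBPJ rose by less than 2-fold, by 0.93 and 0.57, and MAML1 stood at -0.52 and -0.30, the second not past the threshold. Corepressors rose at 5 of 7 tested genes in CCNB1-negative cells against 3 of 7 in CCNB1-positive cells, with CIR1, a partner of RBPJ, at 0.97 ± 0.13 SE and 1.18 ± 0.13 SE (limma adjusted p = 1.71e-05 and 6.09e-06).

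Regulators of receptor turnover rose at 5 of 7 tested genes in each fraction, and 1 fell in CCNB1-negative cells. NUMB, an inhibitor of Notch that promotes receptor endocytosis, rose by 1.84 ± 0.16 SE and 1.20 ± 0.16 SE (limma adjusted p = 2.56e-07 and 2.59e-05), and the ubiquitin ligase DTX2 by 1.16 ± 0.18 SE and 0.95 ± 0.18 SE (limma adjusted p = 5.36e-05 and 0.000433). Of the 3 tested secretory fate factors, 1 rose in CCNB1-negative cells, and 2 rose and 1 fell in CCNB1-positive cells. SPDEF, with group means of 24.2 to 32.1 RPM, stood at -0.13 in CCNB1-negative cells (limma adjusted p = 0.524). In CCNB1-positive cells it stood at -0.42, just past the threshold (limma adjusted p = 0.0486). GFI1 was under the filter and not tested. NEUROG3, which starts enteroendocrine differentiation, rose by 2.62 ± 0.40 SE and 3.70 ± 0.40 SE (limma adjusted p = 4.4e-05 and 4.41e-06), from 4 to 25 reads per untreated library to 41 to 110. Its untreated means, 1.01 and 0.196 RPM, were at or under the 1 RPM required for testing, so it passed that filter through the treated groups, and with quantile normalization the rises were 1.74 and 2.37. ATOH1 stood at 0.71 ± 0.45 SE in CCNB1-negative cells (limma adjusted p = 0.169) and rose by 1.46 ± 0.45 SE in CCNB1-positive cells (limma adjusted p = 0.0111). The ATOH1 call in CCNB1-positive cells was lost without untreated replicate 2 (1.20, limma adjusted p = 0.0632), without treated replicate 1 (1.17, limma adjusted p = 0.0885) and with quantile normalization (0.36, limma adjusted p = 0.547). None of HES2, HES3, HES5, HES7, HEY2, HEYL and HELT reached 1 RPM, and these 7 genes together had 8 to 15 reads per library.

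**Figure D4:**
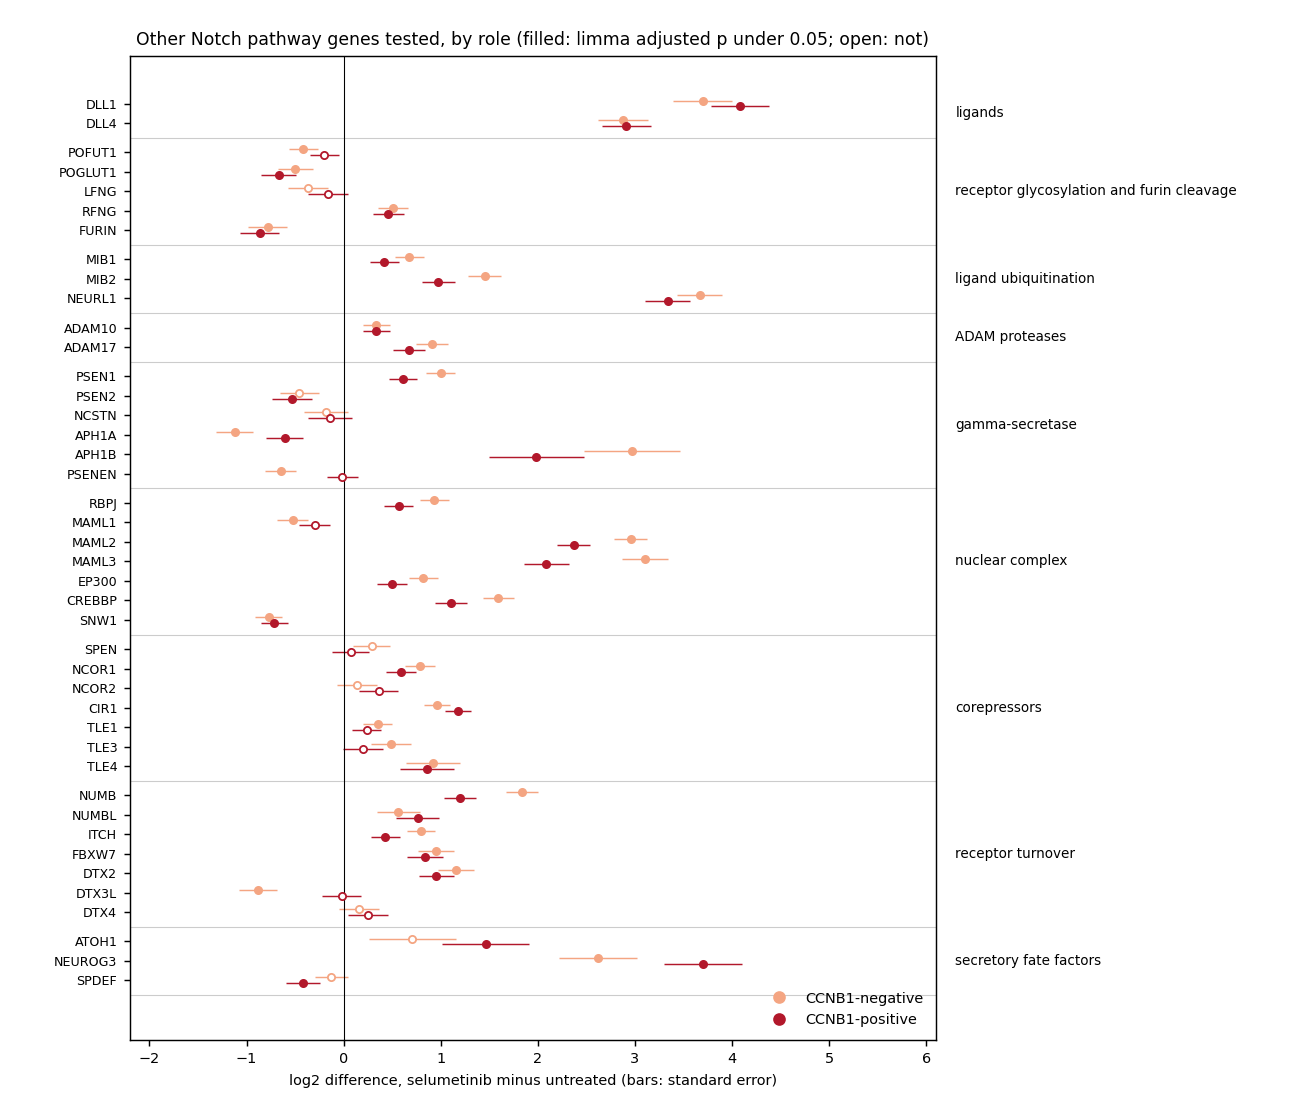
Log2 difference, selumetinib minus untreated, of the 42 tested pathway genes by role, in CCNB1-negative (pale) and CCNB1-positive (dark) cells, with bars of 1 standard error. Filled points have a limma adjusted p under 0.05. DLL1, DLL4, NEURL1, MAML2 and MAML3 stand past 2 in both fractions, as does NEUROG3.

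Between the fractions, 3 pathway genes were called in untreated cells, each lower in CCNB1-positive cells, against 1.51% of all tested genes. They were DLL1 at -1.37, NEURL1 at -1.24 and NEUROG3 at -2.36 (limma adjusted p = 0.0234, 0.00843 and 0.00366). NEUROG3 rested on 25 and 17 reads against 5 and 4, and DLL1 on 26 and 40 against 15 and 13. Their untreated CCNB1-positive means, 0.196 and 0.611 RPM, were under the filter. Whether the calls of pathway genes between fractions hold with a library left out was not examined. In treated cells 7 were lower in CCNB1-positive cells, DLL1, NEURL1, NEUROG3, RBPJ, MAML2, MAML3 and NUMB, and 2 were higher, APH1A and PSENEN, against 7.87% and 13.8% of all tested genes. HES6 was likewise lower in CCNB1-positive cells in both treatments. None of the 42 interactions passed in limma, and 5 were under an unadjusted p of 0.05, those of PSENEN, MAML2, MAML3, NUMB and DTX3L.

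The genes whose 8 values ran closest to those of a receptor, a ligand and a target were sought among 9515 genes. These averaged 10 RPM or more and had a symbol other than a clone or Ensembl identifier. DCAF8, HIP1R and KIAA1109 were the closest to NOTCH1, with Pearson's r of 0.995, 0.994 and 0.993 over the 8 libraries. For JAG1 they were DNMT1, the maintenance DNA methyltransferase, at 0.998, and TREX2 and FAH, both at 0.995. For HES1 they were CIRBP, the mitochondrially encoded MT-CO1 and NOP53, each at 0.994. Such values describe 4 pairs of libraries, each pair of 1 treatment and fraction, and they were common: 297, 1024 and 558 genes exceeded 0.95 with NOTCH1, JAG1 and HES1. MT-CO1 stood at 17.17 to 17.86 in the untreated and 18.77 to 19.05 in the treated libraries, and under scaling to nuclear-encoded reads without MALAT1 the HES1 responses were 1.43 and 1.35 in CCNB1-negative and CCNB1-positive cells.

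The other scalings shifted all genes. With quantile normalization the median response of all tested genes moved by -0.128 in CCNB1-negative cells against -0.24 in CCNB1-positive cells, and with scaling to nuclear-encoded reads without MALAT1 by 0.315 and 0.251. Of all genes called in the CCNB1-positive response, 58.1% were higher with the authors' scaling, 47.5% with quantile normalization and 71.9% with nuclear scaling. In the CCNB1-negative response these shares were 51.6%, 47.4% and 63.1%. Among genes differing between fractions they were 47.5%, 64.8% and 48.1% in untreated and 63.6%, 47.9% and 53.2% in treated cells, and among interactions 93.5%, 70.9% and 94.6%. NOTCH1, HES1, HES4 and HES6 stayed higher and JAG1 and NRARP lower with selumetinib under both scalings, in both fractions, while the small NOTCH2 response changed sign under both in CCNB1-negative cells and under the nuclear scaling in CCNB1-positive cells. Of these calls, that of NRARP in CCNB1-positive cells was lost under the nuclear scaling and the others were kept under both.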

How the data were processed

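The mRNA-seq of sorted HT29 cells was made with a directional poly(A) kit. Per the submitters' processing notes, Trim Galore 0.5.0 was used for trimming and HISAT2 2.1.0 for alignment to GRCh38, and genes were quantified in SeqMonk. The deposited values are log2 reads per gene, scaled by the authors to the total read count of the largest library, with genes without a read at 0.9 reads. The annotation release and the strand setting are not given in the sources used here. All 8 value columns were used and 0 were set aside.

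From this table reads were recovered, with 99.972% to 99.983% of genes with reads whole within 0.05 in each library, and 99.3% of gene identifiers were found in GENCODE on the same build. Genes were tested if their mean log2 value over the 8 libraries reached 4.58, the value of 1 RPM. The test was limma 3.58.1 (R 4.3.3, mean-variance trend, 1 coefficient per group, all 8 libraries). Benjamini-Hochberg adjustment ran over the 14219 genes, with calls at an adjusted p under 0.05. The script was tested on simulated data. The authors' own test was DESeq2; limma was used here because the deposited values are log2 values, and limma-voom on the recovered reads was the alternative that models counts. Whole reads bound counting error only, since they carry no molecular identifiers.

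The 10 genes, the 60-gene pathway list, the check genes and the markers were chosen with earlier results of these data known, as were the alternatives. All 10 genes are named. Pathway genes are named where called and past 2-fold under selumetinib in either fraction, at most 3 per role. The 3 genes most correlated with NOTCH1, JAG1 and HES1 are named, among those of at least 10 RPM without a clone or Ensembl identifier as symbol. MIB1, NEURL1B, ADAM10, ADAM17, RBPJ, MAML1, GFI1 and SPDEF were named after their values were seen. So were the genes differing between fractions and those at an unadjusted interaction p under 0.05. Alternatives were a stricter adjusted p of 0.01, a 2-fold requirement, no filter, a filter of 10 RPM, quantile normalization, scaling to nuclear-encoded reads without MALAT1, log2 of RPM + 0.5, limma-voom on recovered reads, a model without the other groups, 2 kinds of block and leaving out each library.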

Additional observations from a re-analysis of the deposited data

How the results depend on the processing

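The count of 6 genes changed by selumetinib in CCNB1-negative cells stayed between 5 and 6 under the other settings and was 6 to 7 with 1 library left out. In CCNB1-positive cells the count of 6 became 4 at an adjusted p under 0.01, 3 with a 2-fold requirement and 5 with nuclear scaling. It was 5 to 6 with 1 library left out. The 2 genes differing between untreated fractions became 0 at an adjusted p under 0.01 and with a 2-fold requirement, 1 with no filter, with quantile normalization and in a model without the other groups, 3 with the pair of fractions as a random block, and 0 to 2 with 1 library left out. The 4 differing between treated fractions became 1 at an adjusted p under 0.01 and with a 2-fold requirement, 3 with no filter, with quantile normalization, with nuclear scaling and in a model without the other groups, and 1 to 4 with 1 library left out. The 0 interactions became 2 with the pair of fractions as a random block and 0 to 1 with 1 library left out. The stricter thresholds lower counts by construction, and the cause of the other changes was not tested.

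NOTCH2 changed sign from -0.0042 to 0.0526 with quantile normalization and 0.31 with nuclear scaling in the CCNB1-negative response, and to 0.10 with nuclear scaling in the CCNB1-positive response. The JAG2 interaction became -0.0719 and -0.0356 with these scalings. With 1 library left out, differences that crossed 0 ran from -0.0633 to 0.055 for the NOTCH2 response in CCNB1-negative cells, from -0.0361 to 0.49 for NOTCH1, -0.15 to 0.44 for JAG2 and -0.47 to 0.18 for HES1 between untreated fractions, from -0.0677 to 0.42 for JAG2 between treated fractions, and from -0.27 to 0.32 for JAG2 and -0.34 to 0.31 for HES1 in the interaction. None of these passed the test. Of 752 refits of single differences of the tested genes, 685 kept direction and side of the threshold. In many of these refits the direction could not change, so the count does not measure how stable it is. The thresholds, filters, blocks and the model without the other groups reuse the same difference. Leaving out a library outside the comparison reuses it too.

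A replicate block changed 0 of the 40 calls, and the counts stayed at 6, 6, 2, 4 and 0. Same-numbered libraries deviated together across genes only within a treatment (correlation 0.352 untreated, 0.428 treated, otherwise -0.0875 to 0.0821), but the labels do not say that these shared a culture and there are 2 numbers only, so the block for the pair of fractions stands as an alternative. Under it HES4 between untreated fractions and the JAG1 and HES4 interactions passed, and no other call of the tested genes changed. Depth limits NOTCH3 and HEY1, whose few reads leave intervals of several log2 units.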
